A study of Arabidopsis thaliana with 20 samples.

Results

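Sugar moves between the cells of a leaf through the fluid in the cell walls, the apoplast. This route was followed here in Arabidopsis leaves through 10 genes, namely 3 hexose importers (STP1, STP4 and STP13), 2 genes of the cell wall invertase family (cwINV1 and cwINV6) and 5 SWEET sugar transporters (SWEET2, SWEET4, SWEET11, SWEET12 and SWEET15). They are 10 of the 37336 genes in the count table, and were picked by name with earlier fold changes between these groups in view. Their fold changes are therefore a description and carry no p-value. Of the 10, 9 had an average RPKM (reads per kilobase of exon, scaled to library size) of at least 1 and entered the fit of 16288 genes. SWEET15 did not.

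Young leaves were taken from wild-type Col-0 plants that were 6 weeks old and still vegetative. Each sample pooled 4 leaves from different plants, and there were 5 samples in each of 4 groups. Non-infiltrated leaves were left untreated, and the other leaves received about 40 µL through a needleless syringe and were collected 2 days later. The liquid was water, pristine single-walled carbon nanotubes at 50 ng/µL carrying single-stranded RNA against a GFP sequence that the plant lacks (SWNTs), or nanotubes coated with the cationic polymer polyethyleneimine at 50 ng/µL carrying a GFP plasmid (PEI-SWNTs). The paper gives carboxylated nanotubes as the starting material of the PEI-SWNTs. Starting nanotube, surface and cargo thus changed together between the nanotube groups and cannot be told apart. Poly(A) RNA was sequenced.

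Total counts ran from 13387714 to 29737496 per sample, and the non-infiltrated libraries (23138648 to 29737496) were all deeper than the PEI-SWNT libraries (13387714 to 21943422). The median log2 fold change of all tested genes lay between -0.02 and 0.01 in the 6 comparisons. All 8 leaf mesophyll markers and all 8 phloem markers were read in every sample, with at least 403 and 185 counts, and of the epidermal markers the trichome gene GL2 was below the level for testing (12 to 167 counts). The summed mesophyll markers overlapped between groups (51420 to 64640 CPM in non-infiltrated leaves and 52440 to 66470 with PEI-SWNTs, where CA1 was called lower), and the summed epidermal markers were at 735 to 858 CPM in non-infiltrated leaves and 541 to 581 with PEI-SWNTs, none of them called. Their part in the results below was not tested. SWNT replicates 3 and 4 were the closest pair of replicates in the set, with a distance of 29.3 on the log2 scale across genes against 36.7 for the next pair, and values with the pair merged are given where they change a call. Levels below are CPM, read counts scaled to library size with TMM factors, listed from replicate 1 to 5. A level compared between genes is given as RPKM. A gene is written as called where the quasi-likelihood test of edgeR gave an adjusted p under 0.05 (Benjamini-Hochberg, over all 16288 genes) and the change was at least 2-fold.

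As background, a source leaf exports sucrose. SWEET11 and SWEET12 let sucrose out of phloem parenchyma cells into the apoplast, and the symporter SUC2 loads it into the companion cells of the phloem. Cell wall invertase splits apoplastic sucrose into glucose and fructose, and STP proteins bring the hexoses into cells together with protons. Infection and wounding are known to raise cell wall invertase and STP transcripts in leaves.

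The promoters of cwINV1, cwINV6 and STP13, the members with the largest increases with PEI-SWNTs, and of SWEET12, which was lower, are shown from 250 bases before the annotated gene start to 30 bases after it, on the gene's strand (RefSeq, build TAIR10.1). Capitals mark the letters TTGAC or their reverse complement GTCAA, the 5-letter core of the W-box that WRKY transcription factors recognise. The base that follows the core was not part of the search, so a marked stretch need not be a full W-box.
cwINV1 (chr3:4535885-4536164, minus strand): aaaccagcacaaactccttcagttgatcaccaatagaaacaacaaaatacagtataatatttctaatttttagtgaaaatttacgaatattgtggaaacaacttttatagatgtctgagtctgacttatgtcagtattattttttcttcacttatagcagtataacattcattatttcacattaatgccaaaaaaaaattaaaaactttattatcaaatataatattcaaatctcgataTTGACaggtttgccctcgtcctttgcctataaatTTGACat
cwINV6 (chr5:3839066-3839345, plus strand): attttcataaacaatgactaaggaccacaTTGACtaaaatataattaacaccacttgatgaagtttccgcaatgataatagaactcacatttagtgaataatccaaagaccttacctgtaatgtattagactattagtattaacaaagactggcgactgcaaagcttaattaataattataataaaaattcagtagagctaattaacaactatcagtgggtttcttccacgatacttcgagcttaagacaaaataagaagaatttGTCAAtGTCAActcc
STP13 (chr5:9247511-9247790, minus strand): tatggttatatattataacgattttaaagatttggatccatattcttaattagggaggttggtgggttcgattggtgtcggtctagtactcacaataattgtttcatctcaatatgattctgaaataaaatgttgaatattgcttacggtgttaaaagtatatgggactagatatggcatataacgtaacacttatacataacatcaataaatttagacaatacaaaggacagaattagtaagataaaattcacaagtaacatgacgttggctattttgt
SWEET12 (chr5:7973966-7974245, minus strand): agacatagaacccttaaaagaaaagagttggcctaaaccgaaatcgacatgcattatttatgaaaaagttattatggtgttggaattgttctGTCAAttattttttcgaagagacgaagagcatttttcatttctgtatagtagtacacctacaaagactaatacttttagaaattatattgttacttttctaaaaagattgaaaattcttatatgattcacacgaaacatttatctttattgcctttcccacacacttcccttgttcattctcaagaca
Counting both strands, cwINV6 held 3 matches, cwINV1 held 2, SWEET12 held 1 and STP13 none. The cwINV6 pair that begins at +16 and +22 and the cwINV1 match that begins at +24 follow the annotated start. At least 1 match was found in 7 of the 10 genes and in 48.3% of the 27443 promoters of this length, and 3 or more were found in 4.19% of them. The letters TGACG, the core that TGA factors recognise in the as-1 element, were in 4 of the 10 genes and 21.4% of promoters, and the G-box CACGTG was in SWEET4 alone of the 10 genes and 7.24% of promoters. A TGACG match overlaps a TTGAC match where the letters read TTGACG. These matches are a description of the letters and not of binding.

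Hexose importers were higher with PEI-SWNTs and overlapped their non-infiltrated level with water. STP1 (AT1G11260, chr1:3777236-3780823, plus strand) is the main monosaccharide importer of the family and is known from seedlings and guard cells. It was the most abundant STP transcript, at 128 ± 8.56 RPKM in non-infiltrated leaves (SD, n = 5 in this and every later group). Its levels were 295 to 349 CPM in non-infiltrated leaves, 296 to 377 with water, 310 to 393 with SWNTs and 439 to 678 with PEI-SWNTs. Every PEI-SWNT sample was above every other sample, although by less than 2-fold, at log2 0.70 ± 0.11 (SE) over non-infiltrated leaves and 0.60 ± 0.11 over water. Its differences with water (0.10 ± 0.11) and SWNTs (0.11 ± 0.11) were about as large as their errors. Of its exon bases, 12.6% lie under the antisense gene AT1G11270, and since the strand setting of the counting is not given in the sources used here, reads of both genes cannot be told apart there. The other 9 members overlap no annotated gene in their exons, and no stretch of 100 bases of any member occurs elsewhere in the genome. The summed level of the 5 guard cell markers was 71.2 to 87.6 CPM in non-infiltrated leaves and 41.7 to 45.4 CPM with PEI-SWNTs. Its mean was 53.7 CPM with water and 53.1 CPM with SWNTs, again without overlap with non-infiltrated leaves. The potassium channel gene KAT1 was called lower with SWNTs and with PEI-SWNTs. The summed level of these markers was lower in every infiltrated group. The part of the markers in the STP1 values was not tested.

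STP4 (AT3G19930, chr3:6934568-6937197, plus strand) imports glucose and is known from roots, pollen and wounded or infected leaves. It was read at 60.6, 61.5, 56.1, 62.3 and 74.8 CPM in non-infiltrated leaves. With water it was read at 56.8, 48.8, 71.5, 60.4 and 57.6 CPM, and with SWNTs at 64.8, 64.2, 62.4, 59.7 and 56.1 CPM. These 3 groups overlapped. With PEI-SWNTs the values were 124, 130, 130, 124 and 114 CPM, a tight group above all 15 other samples. The log2 fold change was 1.08 ± 0.09 against water, 1.02 ± 0.09 against SWNTs and 0.98 ± 0.09 against non-infiltrated leaves, so the first and second passed the 2-fold line and the last fell just short of it. The value against SWNTs was 0.98 to 1.00, just under the line, with SWNT replicates 3 and 4 merged or without non-infiltrated replicate 1 or 4, PEI-SWNT replicate 1, 2 or 3, or SWNT replicate 4 or 5. Leaving out non-infiltrated replicate 5 gave 1.05 against non-infiltrated leaves, over it.

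STP13 (AT5G26340, chr5:9243398-9247540, minus strand) is a high-affinity hexose importer that takes up sugars from the apoplast in infected leaves. Non-infiltrated leaves gave 34.1, 27.2, 45.9, 13.2 and 23.9 CPM, a 3.49-fold range. Water gave 49.2, 39.8, 28.1, 32.8 and 30.4 CPM. Both groups overlapped through most of their range. SWNTs gave 74.2, 36.9, 47.0, 46.5 and 32.6 CPM, of which replicate 1 was above every non-infiltrated and water sample. PEI-SWNTs gave 167, 150.0, 169, 139 and 129 CPM, with no overlap with any other group. The step was 5.22-fold over non-infiltrated leaves (log2 2.38 ± 0.26), 4.18-fold over water (2.06 ± 0.26) and 3.18-fold over SWNTs (1.67 ± 0.26). The differences with water (0.32 ± 0.25) and SWNTs (0.71 ± 0.26) were not called.

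**Figure D1:**
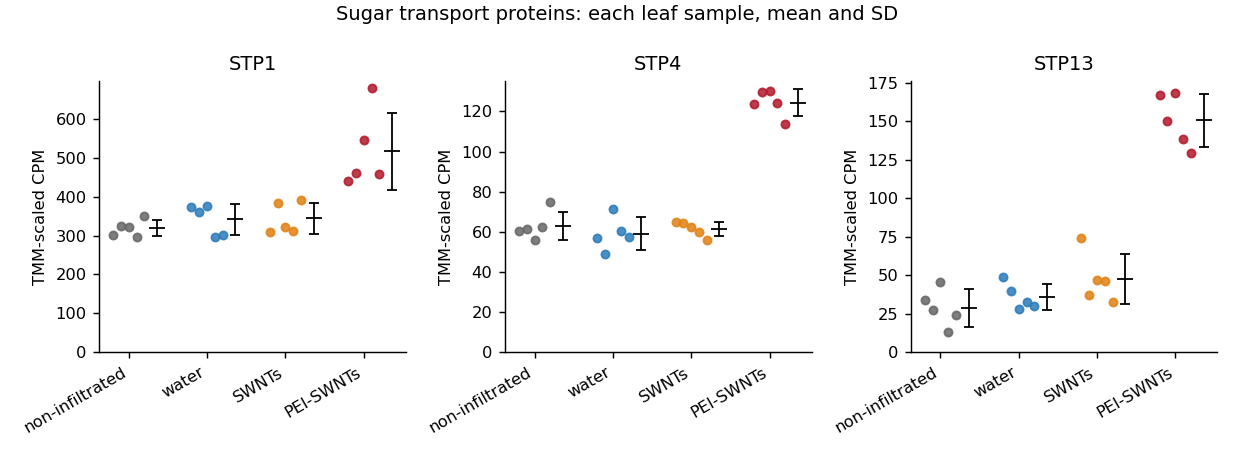
TMM-scaled CPM (vertical axes, from 0) of STP1, STP4 and STP13 in the 4 groups, with 1 point per leaf sample and the mean ± SD of 5 samples in black. In all 3 panels the PEI-SWNT samples sit above the other 15 samples, and STP13 shows the widest gap.

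Summed over the 14 STP genes, the level was 196 ± 13.6 RPKM in non-infiltrated leaves, 206 ± 19.1 with water, 215 ± 11.6 with SWNTs and 368 ± 44.1 with PEI-SWNTs. STP1, STP4 and STP13 together made up 82.4% to 88.2% of it in every sample. STP13 made up 5.65% ± 2.20 in non-infiltrated leaves and 16.0% ± 2.32 with PEI-SWNTs, while STP1 made up 65.6% ± 2.50 and 56.2% ± 4.46. The share of STP4 overlapped between these groups, at 13.5% ± 1.42 and 14.3% ± 1.43. That of STP1 also overlapped, at 62.55% to 68.51% and 51.05% to 62.9%, and that of STP13 did not. The ratio of STP13 to STP1 in RPKM was 0.0429 to 0.137 in non-infiltrated leaves and 0.197 to 0.366 with PEI-SWNTs, without overlap.

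Among the invertase genes, cwINV1 was higher in every infiltrated group and cwINV6 was high with PEI-SWNTs alone. cwINV1 (AT3G13790, chr3:4532762-4535914, minus strand) encodes a sucrose-splitting cell wall invertase, the main one of leaves. It was read at 13.7, 8.63, 13.8, 9.06 and 14.8 CPM in non-infiltrated leaves. With water it was read at 74.1, 35.5, 48.2, 39.4 and 49.4 CPM, and with SWNTs at 76.0, 41.5, 57.7, 62.1 and 35.1 CPM. The lowest infiltrated sample was thus more than 2-fold above the highest non-infiltrated one, and the water and SWNT samples overlapped. With PEI-SWNTs it was read at 204, 188, 210, 173 and 166 CPM, above all other samples. Against non-infiltrated leaves the fold changes were 4.11 with water (log2 2.04 ± 0.22), 4.53 with SWNTs (2.18 ± 0.22) and 15.7 with PEI-SWNTs (3.97 ± 0.23). PEI-SWNTs exceeded water 3.81-fold (1.93 ± 0.21) and SWNTs 3.46-fold (1.79 ± 0.21), and SWNTs differed from water by 0.14 ± 0.21. Replicate 1 was the highest sample for cwINV1 and for STP13 in both the water and the SWNT group.

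cwINV6 (AT5G11920, chr5:3839316-3842409, plus strand) carries a cell wall invertase name, but RefSeq describes its product as a fructan exohydrolase, an enzyme that trims fructose from fructans and not from sucrose. Its reads were so few outside the PEI-SWNT group that counts are given. Non-infiltrated leaves had 0, 1, 1, 6 and 0 counts, and water-infiltrated leaves had 12, 1, 1, 2 and 5 counts. SWNT leaves had 7, 3, 3, 5 and 8 counts. PEI-SWNT leaves had 261, 400, 306, 303 and 251 counts, in libraries that were all shallower than the non-infiltrated ones. Over the group, this was 17.4 CPM (exact 95% Poisson interval 16.5 to 18.3, for counting error only), against 0.0616 CPM (0.0266 to 0.121) in non-infiltrated leaves, 0.194 (0.120 to 0.296) with water and 0.284 (0.186 to 0.416) with SWNTs. The fitted log2 difference was 8.04 ± 0.47 against non-infiltrated leaves, 6.50 ± 0.42 against water and 5.95 ± 0.41 against SWNTs. These sizes rest on few reads in the lower group, since leaving out non-infiltrated replicate 4, which held 6 of that group's 8 counts, gave 9.46, and leaving out water replicate 1 gave 7.32 against water. cwINV6 also entered the fit through the PEI-SWNT group only, since its level was 7.78 ± 2.13 RPKM there and 0.122 ± 0.0443 RPKM or less on average elsewhere. With water it was not called (1.54 ± 0.77), but it was with DESeq2 (1.63) or without non-infiltrated replicate 4 (2.99), and the value was 0.72 without water replicate 1. It was called higher with SWNTs than in non-infiltrated leaves at log2 2.09 ± 0.74, but the samples overlapped and the call was lost without SWNT replicate 1 (1.95), 4 (2.04) or 5 (2.00), or without non-infiltrated replicate 1, 2, 3 or 5 (1.75 to 1.98).

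**Figure D2:**
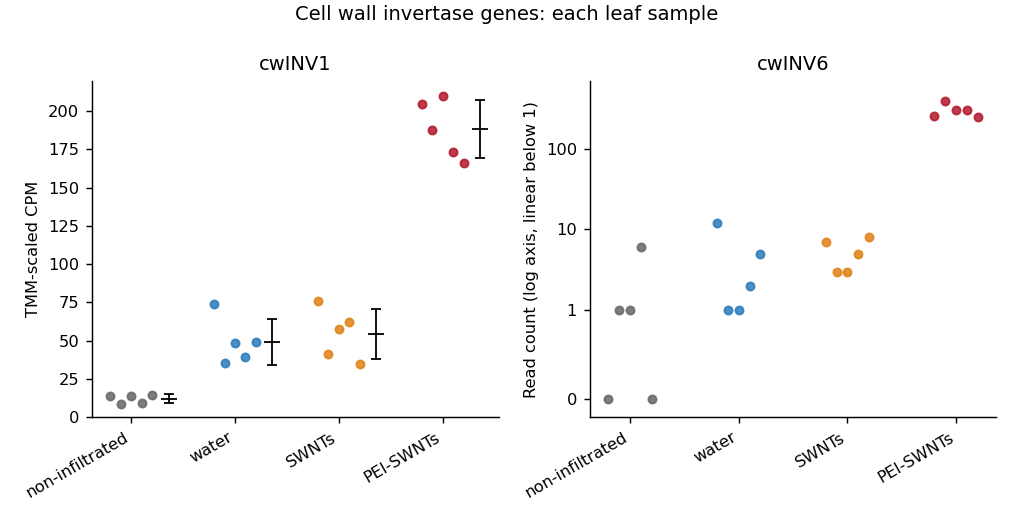
cwINV1 as TMM-scaled CPM (left, linear axis from 0, mean ± SD of 5 samples in black) and cwINV6 as read counts (right, log axis that is linear below 1), with 1 point per leaf sample. All PEI-SWNT samples of cwINV6 lie at 251 to 400 counts and all other samples at 0 to 12.

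The vacuolar invertase VI2, which splits sucrose inside the cell, was the most abundant acid invertase transcript of non-infiltrated leaves. Its level was 133 ± 47.7 RPKM there, 97.0 ± 33.4 with water, 84.3 ± 16.5 with SWNTs and 80.0 ± 14.6 with PEI-SWNTs. It was lower than in non-infiltrated leaves with SWNTs (log2 -0.66 ± 0.23, adjusted p = 0.029 by edgeR's quasi-likelihood test) and with PEI-SWNTs (-0.74 ± 0.23, adjusted p = 0.010). Both differences were less than 2-fold, and the samples overlapped in each case. The RPKM ratio of cwINV1 to VI2 was 0.0164 to 0.0639 in non-infiltrated leaves, 0.131 to 0.342 with water, 0.145 to 0.433 with SWNTs and 0.665 to 1.19 with PEI-SWNTs. The ratio was at or above 1 in 3 PEI-SWNT samples (1.04 to 1.19) and in no other sample. cwINV1 made up 3.21% ± 1.53 of the summed RPKM of the 8 acid invertase genes in non-infiltrated leaves and 41.8% ± 5.00 with PEI-SWNTs. The sum itself was 166 ± 53.5 RPKM in non-infiltrated leaves and 177 ± 11.3 with PEI-SWNTs. These groups overlapped in the sum and not in the share of cwINV1.

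**Figure D3:**
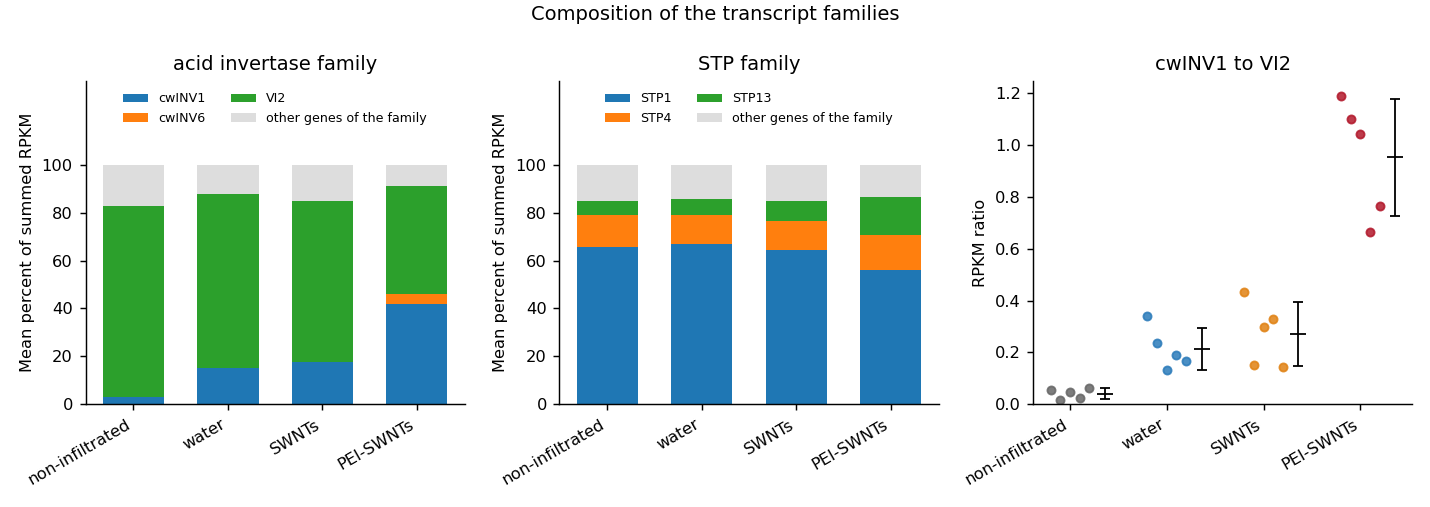
Mean percent of the summed RPKM of the 8 acid invertase genes (left) and the 14 STP genes (middle) taken by the named genes in each group of 5 samples, and the cwINV1 to VI2 RPKM ratio of each sample with the mean ± SD (right). cwINV1 takes 3.21% of its family in non-infiltrated leaves and 41.8% in PEI-SWNT leaves, and the mean ratio is 0.0409 and 0.953.

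The SWEET genes did not follow the importers. SWEET11 and SWEET12, the sucrose exporters of the phloem parenchyma, were the most abundant SWEET transcripts and together made up 75.4% to 85.7% of the family's summed RPKM in every sample. SWEET12 (AT5G23660, chr5:7971647-7973995, minus strand) was read at 59.7, 103, 63.0, 64.5 and 52.2 CPM in non-infiltrated leaves, of which replicate 2 stood apart. Water gave 37.3, 32.9, 67.0, 35.2 and 55.4 CPM, and SWNTs gave 30.1, 40.6, 33.6, 37.3 and 49.4 CPM. The water samples overlapped the non-infiltrated ones and the SWNT samples lay below them. PEI-SWNTs gave 18.7, 30.2, 28.3, 34.9 and 27.3 CPM. Against non-infiltrated leaves the log2 fold change was -0.59 ± 0.21 with water, -0.84 ± 0.21 with SWNTs and -1.296 ± 0.22 with PEI-SWNTs, of which the last was called lower. PEI-SWNT samples overlapped the water and SWNT samples, with log2 differences of -0.71 ± 0.22 and -0.46 ± 0.22.

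SWEET11 (AT3G48740, chr3:18052466-18054832, minus strand) had means in the same order. Its levels were 106 to 279 CPM in non-infiltrated leaves, 154 to 235 with water, 116 to 164 with SWNTs and 92.1 to 149.7 with PEI-SWNTs. The non-infiltrated samples alone spanned 2.64-fold and covered nearly all others, and no comparison was called. Its largest log2 difference, between PEI-SWNTs and non-infiltrated leaves, was -0.69 ± 0.21. SWEET11 and SWEET12 were not tied sample by sample, since the ratio of their RPKM values ran from 1.59 to 4.30 in non-infiltrated leaves and from 3.27 to 7.13 with PEI-SWNTs. Across the 17 SWEET genes the summed level was 251 ± 67.6 RPKM in non-infiltrated leaves, 213 ± 14.7 with water, 171 ± 18.7 with SWNTs and 138 ± 15.9 with PEI-SWNTs. In bulk leaves, fewer phloem cells and less RNA per phloem cell cannot be told apart. The summed level of the 8 phloem markers was 824 to 979 CPM in non-infiltrated leaves, 714 to 796 with water, 749 to 775 with SWNTs and 698 to 750.3 with PEI-SWNTs, none of the 8 was called, and their part in the SWEET values was not tested.

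SWEET4 (AT3G28007, chr3:10408073-10409977, minus strand), a hexose transporter of the vasculature, had few reads, 9 to 167 per sample. Non-infiltrated leaves gave 3.28, 4.97, 3.33, 5.92 and 5.66 CPM. Water gave 1.08, 1.29, 1.57, 1.32 and 1.295 CPM, and PEI-SWNTs gave 1.01, 1.38, 0.675, 1.23 and 1.74 CPM. The water and PEI-SWNT groups lay below all non-infiltrated samples and overlapped each other. SWNTs gave 5.34, 2.09, 2.47, 1.51 and 1.64 CPM, so replicate 1 was at the non-infiltrated level and the other 4 samples lay below all non-infiltrated ones. SWEET4 was called lower with water (log2 -1.82 ± 0.30) and with PEI-SWNTs (-1.91 ± 0.31) than in non-infiltrated leaves, but not with SWNTs (-0.83 ± 0.29). It was also called lower with PEI-SWNTs than with SWNTs (-1.08 ± 0.32), and without SWNT replicate 1 that difference was -0.67 and no longer called, while SWNTs against non-infiltrated leaves became -1.26 and was called. Without PEI-SWNT replicate 3 the former was -0.96 and not called. SWNTs against water was 1.00 ± 0.31, just short of the 2-fold line, and it was called with SWNT replicates 3 and 4 merged (1.04) or without water replicate 3 or SWNT replicate 2, 4 or 5 (1.04 to 1.13), while without SWNT replicate 1 it was 0.55.

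SWEET2 (AT3G14770, chr3:4957334-4959704, minus strand), a glucose transporter of the vacuole membrane known from roots, was highest with water. Non-infiltrated leaves gave 6.64, 7.72, 7.48, 7.32 and 11.2 CPM, and water gave 18.5, 13.1, 18.9, 13.0 and 16.8 CPM. No water sample overlapped a non-infiltrated one. SWNTs gave 12.1, 13.6, 10.5, 11.1 and 12.1 CPM, and PEI-SWNTs gave 10.2, 10.6, 9.22, 11.9 and 11.8 CPM. The means of both nanotube groups lay between, and every PEI-SWNT sample was below every water sample. The log2 fold change over non-infiltrated leaves was 0.99 ± 0.14 with water, 0.56 ± 0.14 with SWNTs and 0.41 ± 0.14 with PEI-SWNTs. The value with water lay on the 2-fold line and was 1.14 without non-infiltrated replicate 5, 1.06 without water replicate 2 or 4 and 1.01 with SWNT replicates 3 and 4 merged, each of which was called. It was also called at 1.00 without any of the PEI-SWNT replicates or without SWNT replicate 1, 2 or 4.

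SWEET15 (AT5G13170, chr5:4181042-4183354, minus strand), a sucrose transporter also known as SAG29 for its rise in senescing leaves, was close to unread. Non-infiltrated leaves had 2, 4, 4, 2 and 4 counts. Water leaves had 0, 0, 0, 0 and 2 counts, SWNT leaves 0, 0, 0, 1 and 0, and PEI-SWNT leaves 0, 1, 0, 3 and 0. Every non-infiltrated sample thus had reads and most infiltrated samples had none, in libraries that were mostly shallower. Over a group this was 0.123 CPM (exact 95% Poisson interval 0.0704 to 0.200) in non-infiltrated leaves, 0.0185 (0.00224 to 0.0667) with water, 0.0109 (0.000277 to 0.0609) with SWNTs and 0.0457 (0.0125 to 0.117) with PEI-SWNTs. No fold change is given at this depth.

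**Figure D4:**
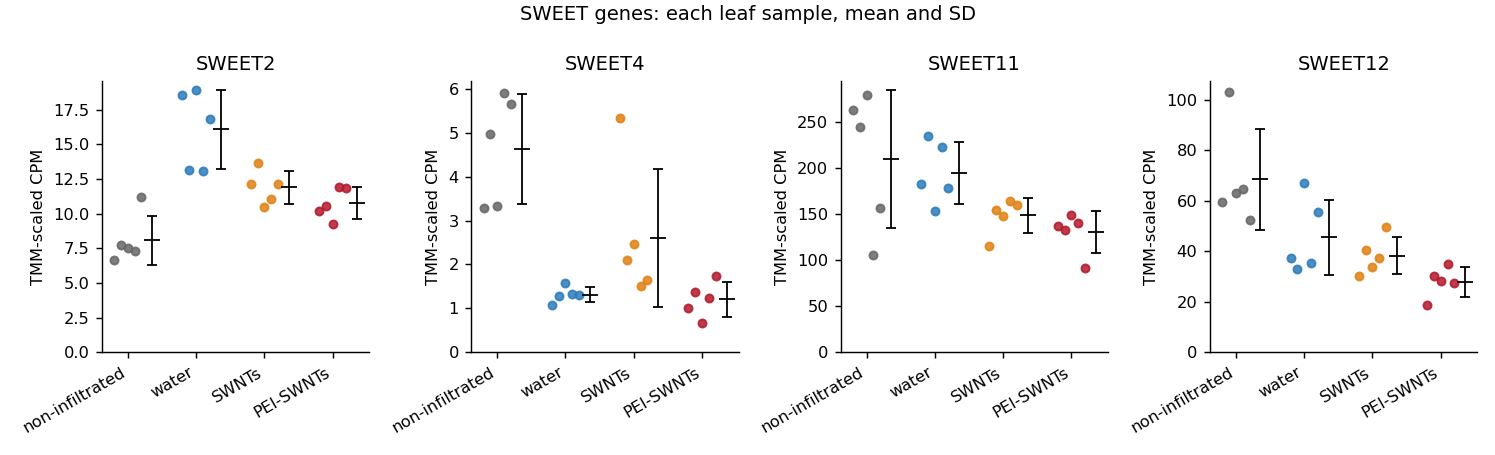
TMM-scaled CPM (vertical axes, from 0) of SWEET2, SWEET4, SWEET11 and SWEET12 in the 4 groups, with 1 point per leaf sample and the mean ± SD of 5 samples in black. SWEET2 is highest with water, SWEET4 is low with water and PEI-SWNTs and has 1 high SWNT sample at 5.34, and SWEET12 is lowest with PEI-SWNTs.

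With water against non-infiltrated leaves, 1 of the 9 tested members was called higher (cwINV1; 2.61% of all tested genes were) and 1 lower (SWEET4; 1.90% of all). With SWNTs against non-infiltrated leaves, 2 were called higher (cwINV1 and cwINV6; 4.82% of all) and none lower (2.09% of all). With PEI-SWNTs against non-infiltrated leaves, 3 were called higher (STP13, cwINV1 and cwINV6; 8.47% of all) and 2 lower (SWEET4 and SWEET12; 6.29% of all). SWNTs against water gave no member called, with 1.23% of all genes called higher and 0.289% lower. PEI-SWNTs against water gave 4 called higher (STP4, STP13, cwINV1 and cwINV6; 6.13% of all) and none lower (3.47% of all). PEI-SWNTs against SWNTs gave the same 4 called higher (3.81% of all) and SWEET4 called lower (2.58% of all). Because the members were chosen with such differences in view, nothing is read from these counts against the shares of all genes. The comparisons against 1 group also share its 5 samples. A stricter test, of whether the change exceeds 2-fold, lost the calls of STP4, of SWEET12, of SWEET4 with water and against SWNTs, of cwINV6 with SWNTs and of STP13 against SWNTs.

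The median log2 fold change of the 9 members against non-infiltrated leaves was 0.70 with PEI-SWNTs, 0.10 with water and 0.11 with SWNTs. Samples of the compared groups did not overlap for 7 of the 9 members between PEI-SWNTs and non-infiltrated leaves, while 41.9% of all tested genes did not overlap there. This count was 7 between PEI-SWNTs and water (35.0% of all genes), 5 between PEI-SWNTs and SWNTs (29.0%), 3 between water and non-infiltrated leaves (17.8%), 2 between SWNTs and non-infiltrated leaves (27.0%) and 0 between SWNTs and water (11.9%). The 5 importer and invertase genes were higher without overlap in all 3 comparisons with PEI-SWNTs as the first group. The share of all genes with this joint pattern was not computed, and cwINV6 passed the filter only through the PEI-SWNT group. Because the members were chosen with such differences in view, nothing is read from this pattern or from the counts without overlap. Within groups, the deviations of the 20 samples from their group means were most alike for STP13 and cwINV1 (Pearson r 0.65) and most opposed for SWEET4 and SWEET11 (-0.66), among 36 pairs of members with a median of -0.02. These correlations share the same libraries and pooled leaves and are a description.

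**Figure D5:**
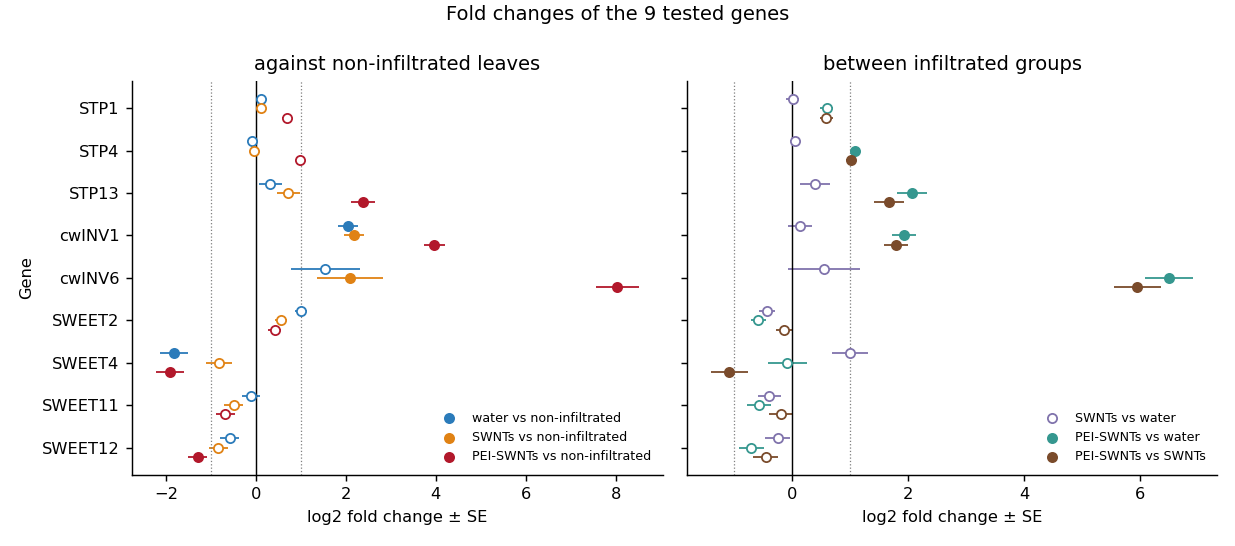
Log2 fold change ± SE (horizontal axes) of the 9 tested genes (rows) against non-infiltrated leaves (left) and between the infiltrated groups (right), with filled points called and open points not called, and dotted lines at 2-fold. STP13, cwINV1 and cwINV6 lie far right in each comparison with PEI-SWNTs, and the SWEET genes lie near or left of 0 apart from SWEET2 against non-infiltrated leaves and SWEET4 in SWNTs against water.

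A list of 59 other genes of sugar transport and sucrose cleavage, chosen with earlier results known, held the rest of the STP, SWEET and acid invertase families and part of some others such as the hexokinases. Of the 59, 27 were tested, and their p-values are from edgeR's quasi-likelihood test, adjusted over all tested genes by Benjamini-Hochberg. With PEI-SWNTs against non-infiltrated leaves, 3 of the 27 rose (8.47% of all tested genes did) and 6 fell (6.29% of all) past the 2-fold line, and nothing particular to the list is read from these counts. PLT6, of the polyol and monosaccharide transporter family, rose the most of the 27, from 14.4 ± 1.79 to 154 ± 4.71 CPM (log2 3.42 ± 0.13, adjusted p = 3.2e-13). It also rose with SWNTs, to 56.4 ± 5.28 CPM, against non-infiltrated leaves (1.97 ± 0.13, adjusted p = 7.4e-09) and against water (1.36 ± 0.12, adjusted p = 2.8e-06), the only one of the 27 called between SWNTs and water. STP7, an importer of arabinose and xylose, rose from 12.7 ± 1.73 to 47.8 ± 4.91 CPM with PEI-SWNTs (1.92 ± 0.11, adjusted p = 4.0e-11). The sucrose importer SUC1 rose from 124 ± 13.9 to 294 ± 27.2 CPM (1.24 ± 0.09, adjusted p = 7.6e-10). AT5G61520, annotated as a transporter of the major facilitator superfamily and of highest average RPKM among the other genes listed with the STPs, was at 42.2 ± 9.97 CPM in non-infiltrated leaves and 47.7 ± 6.50 with PEI-SWNTs, and did not pass the test in any comparison (adjusted p from 0.19 to 0.96).

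Of the other SWEETs, 4 of 12 were tested. Past the 2-fold line, 3 of these fell with PEI-SWNTs against non-infiltrated leaves (6.29% of all tested genes did). Nothing particular to the family is read from this count. SWEET13, a sucrose transporter closely related to SWEET11 and SWEET12, fell from 17.0 ± 8.39 to 2.85 ± 0.941 CPM (log2 -2.60 ± 0.35, adjusted p = 2.9e-06), and it also fell against water (-2.12 ± 0.35, adjusted p = 5.1e-05) and against SWNTs (-1.39 ± 0.36, adjusted p = 0.0040). The fructose transporter of the vacuole membrane SWEET17 fell to 4.24 CPM from 12.0 (-1.50 ± 0.29, adjusted p = 1.5e-04). SWEET16, another vacuolar transporter, fell to 2.82 CPM from 6.19 (-1.11 ± 0.27, adjusted p = 0.0016). With SWNTs against non-infiltrated leaves SWEET13 fell at -1.20 ± 0.32 (adjusted p = 0.0050), although the samples overlapped and the value was -0.98 without non-infiltrated replicate 3. SWEET16 also overlapped between PEI-SWNT and non-infiltrated leaves and was at -0.88 without non-infiltrated replicate 2. Against SWNTs, SWEET17 fell at -1.10 ± 0.29 (adjusted p = 0.0049) and was just short of 2-fold without PEI-SWNT replicate 4. The glucose transporter SWEET1 fell with water, at -1.08 ± 0.10 (adjusted p = 9.0e-07). It was also lower without overlap, by less than 2-fold, with SWNTs (-0.67 ± 0.09) and with PEI-SWNTs (-0.72 ± 0.09) against non-infiltrated leaves. Under the stricter test, of whether the change exceeds 2-fold, the calls of SWEET1, SWEET16 and SWEET17 were lost. So were those of SWEET13 with SWNTs and between PEI-SWNTs and SWNTs.

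Falls past the 2-fold line with PEI-SWNTs against non-infiltrated leaves were further seen for AT1G62660, which RefSeq places with the acid invertases in a glycosyl hydrolase family (log2 -1.05 ± 0.27, adjusted p = 0.0022), the invertase inhibitor C/VIF2 (-1.12 ± 0.13, adjusted p = 4.4e-07) and the hexokinase HXK2 (-1.05 ± 0.12, adjusted p = 3.2e-07). C/VIF2 was also lower without overlap, by less than 2-fold, with water (-0.805 ± 0.128) and with SWNTs (-0.925 ± 0.129). Between PEI-SWNTs and water its samples overlapped (-0.32 ± 0.131). With water, AT1G62660 (-1.05 ± 0.27, adjusted p = 0.0056), the sucrose synthase SUS3 (-1.14 ± 0.19, adjusted p = 2.3e-04) and SWEET1 made 3 falls (1.90% of all tested genes fell) and no related gene rose (2.61% of all). AT1G62660 overlapped between the groups in both comparisons and was at -0.85 in each without non-infiltrated replicate 2, and with water at -0.88 without water replicate 2 and -0.95 without water replicate 4. With SWNTs against non-infiltrated leaves 1 rose (PLT6; 4.82% of all) and 1 fell (SWEET13; 2.09% of all), and against water 1 rose (PLT6; 1.23% of all) and none fell (0.289% of all). PEI-SWNTs against water gave 2 rises (STP7 and PLT6; 6.13% of all) and 2 falls (SWEET13 and SWEET17; 3.47% of all). PEI-SWNTs against SWNTs gave the same 2 rises (3.81% of all) and 3 falls (SWEET13, SWEET16 and SWEET17; 2.58% of all). The medians of the 27 genes were -0.25 for PEI-SWNTs, -0.19 for water and -0.08 for SWNTs against non-infiltrated leaves, and 0.15, 0.24 and -0.06 for SWNTs against water, PEI-SWNTs against water and PEI-SWNTs against SWNTs, in log2. The remaining 32 genes of the list were below the level for testing, among them cwINV2 and cwINV4, which had no read in any sample.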

How the data were processed

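RNA of 20 leaf samples was sequenced in 4 groups of 5. Per the labels and the study's methods, the authors trimmed reads with Trimmomatic, mapped them to TAIR10 with HISAT2 and deposited raw read counts per gene from featureCounts 2.0.1, whose strand setting is not given in the sources used here; their notes name edgeR 3.30.3. The authors' second table holds their own fold changes and tests, which were not used; its deposited gene length, another unit in bases, served 139 genes that the annotation lacked.

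Counts were fitted with edgeR 4.0.16 (glmQLFit with its earlier method, glmQLFTest, TMM, group as the only term, all 20 samples). The filter was a mean RPKM of 1 or more over the 20 samples, with exon lengths from RefSeq TAIR10.1 (37051 genes), and 1 contrast was made for each of 6 pairs of groups. CPM and RPKM used TMM-scaled totals. In simulated counts for PEI-SWNTs against non-infiltrated leaves (16219 genes), 63 of 67 genes changed 2-fold and 48 of 71 changed 1.5-fold had an adjusted p under 0.05, as had 7 of 16020 unchanged genes. The simulation changed 200 genes, whereas 10593 of 16288 had an unadjusted p under 0.05 by edgeR's quasi-likelihood test in the data. Its rates need not hold for the real fit. Intervals cover counting error only.

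The members and lists were chosen with earlier results of these data known. All 10 members are named, with related genes called at least once and the most abundant uncalled gene of the STP and acid invertase families. Alternatives were other normalizations, filters and thresholds, DESeq2 1.42.0, a replicate block, fits of 10 samples, a merged pair and leaving out each sample.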

Additional observations from a re-analysis of the deposited data

Results flagged for a closer look

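In 7 of the 40 sets of 5 values (10 genes in 4 groups), 1 sample stood far from the other 4 by Dixon's criterion for 5 values, which normally distributed values meet in about 1 of 20 sets. In non-infiltrated leaves these were SWEET12 in replicate 2 (103 CPM, next 64.5), SWEET2 in replicate 5 (11.2 CPM, next 7.72) and cwINV6 in replicate 4 (0.248 CPM, next 0.0394, which is 6 counts against 1). With water they were cwINV6 in replicate 1 (0.498 CPM, next 0.180) and SWEET15 in replicate 5 (0.072 CPM, 2 counts, the others at 0). With SWNTs they were SWEET4 in replicate 1 (5.34 CPM, next 2.47) and SWEET15 in replicate 4 (0.0655 CPM, 1 count, the others at 0). All 7 were the highest value of their set, and none was in the PEI-SWNT group. The rate of 1 in 20 does not hold for the cwINV6 and SWEET15 sets, which have few counts. No excess of outlying samples is therefore read from the 7.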

How the results depend on the processing

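Of the members' log2 fold changes under the alternatives, 1610 of 1616 values stayed within 1 SD between replicates of the reported value and no called value changed sign. The 6 exceptions were all cwINV6, without non-infiltrated replicate 4 (2.99 with water, 3.53 with SWNTs and 9.46 with PEI-SWNTs) or without water replicate 1 (0.72 with water against non-infiltrated leaves, 1.37 for SWNTs and 7.32 for PEI-SWNTs against water). Leaving out 1 of 5 samples moves a mean of log2 levels by less than 1 SD. For those fits the count was thus largely fixed in advance and says little about stability. Several calls of members did change, as given above. For the related genes, 22 of 768 values lost their call, none turned, and 15 of the 22 were under edgeR's test against a 2-fold minimum (glmTreat). No call of a member or related gene changed with edgeR's current method (chosen after seeing the data), plain library sizes or robust fitting, and RLE normalization changed 1 (SWEET2 called with water, 1.01).

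Dropping the 2-fold minimum gave 5345 genes called for water, 6840 for SWNTs and 10032 for PEI-SWNTs against non-infiltrated leaves, 2225 for SWNTs and 8458 for PEI-SWNTs against water and 6725 for PEI-SWNTs against SWNTs. In that order but for the last, it called 4, 6, 9, 2 and 8 members and 13, 17, 22, 7 and 18 related genes, and in the last it called 16 related genes. The test against a 2-fold minimum called 74, 299 and 1273 genes against non-infiltrated leaves, 0 and 596 against water and 303 against SWNTs. It called 1 member with water, 1 with SWNTs and 2 for PEI-SWNTs against SWNTs, and 0, 1 and 4 related genes against non-infiltrated leaves, 0 for SWNTs against water and 1 for PEI-SWNTs against SWNTs. At SWNTs against water, 4453 genes had an unadjusted p under 0.05, and the main test called 248.

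With filterByExpr, water against non-infiltrated leaves gave 1106 genes and 8 related genes, PEI-SWNTs against non-infiltrated leaves 14 related genes and SWNTs against water 3. With no filter, the genes called were 1295, 1713 and 3928 against non-infiltrated leaves, 2427 for PEI-SWNTs against water and 1654 against SWNTs, with 8 and 14 related genes for water and PEI-SWNTs against non-infiltrated leaves, 2 for SWNTs against water and 8 for PEI-SWNTs against SWNTs. DESeq2 called 4 members for water (cwINV6 and SWEET2 added). Fitting the 10 samples compared alone called 1 member for SWNTs against non-infiltrated leaves, since cwINV6 then failed the filter. Merging SWNT replicates 3 and 4 called 1 member for SWNTs against water (SWEET4).

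Leaving out 1 sample at a time gave 1 to 2 members called for SWNTs against non-infiltrated leaves, 0 to 1 for SWNTs against water and 3 to 5 for PEI-SWNTs against SWNTs. Same-numbered samples did not deviate together (r from -0.36 to 0.29, above 0.1 in 9 of 30 pairs), so the numbers were not taken as pairs. With the replicate number as a block, 735 genes called for water against non-infiltrated leaves became 730, 248 for SWNTs against water became 232, and SWEET2 with water was called (1.00), which was the only call of a member or related gene that changed. Depth limits SWEET15, cwINV6 outside PEI-SWNTs, and SWEET4.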
